A study of Mus musculus with 12 samples.

Results

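The response of DOT1L-deficient macrophages to bacterial lipopolysaccharide (LPS) was described from 6 of the 12 libraries of the series, taken by their labels: 3 from knockout (KO) cells given 10 ng/mL LPS from Escherichia coli for 3 hours and 3 from untreated KO cells. The cells were bone marrow-derived macrophages of C57BL/6 mice that lack the histone methyltransferase DOT1L in myeloid cells, with Lyz2 named for the strain. They were grown from marrow for 7 to 8 days with 15% L929-conditioned medium, which supplies M-CSF. The other 6 libraries came from wild-type (WT) cells of the same strain under the same 2 conditions. They served to show where the KO response differs, and they also entered the fit that gave the KO calls. The labels call the 3 samples of each group biological replicates and give neither age nor sex. All 4 groups share the culture medium, and no time other than 3 hours was measured. Because the samples are bulk RNA, fewer cells of a type and less RNA per cell cannot be told apart.

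LPS, a component of the outer membrane of Gram-negative bacteria, is carried by CD14 to TLR4 and its partner MD-2. The adaptor MyD88 then activates the kinases that free NF-kB from its inhibitors and the MAP kinases that act on AP-1 factors, while the adaptor TRIF activates IRF3 and the gene of interferon beta. Secreted interferon acts back on the cell through factors that bind interferon-stimulated response elements. DOT1L methylates lysine 79 of histone H3 in the bodies of transcribed genes, and the study addresses its part in macrophage lipid synthesis and inflammatory responses.

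The promoters of 7 genes that rose with LPS are shown, 5 with a match to the motifs searched and 2, of Il12b and Ptgs2, with none. Each line gives the 250 bases before the annotated start (RefSeq, GRCm38.p6, the assembly known as mm10), 5′ to 3′ on the strand of the gene. Capitals mark letters that match an NF-kB motif (GGG, any 3 bases, then TTCC), an interferon-stimulated response element (GAAA, any 2 bases, then GAAA) or an AP-1 motif (TGANTCA) on either strand.
Nfkbia (chr12:55492648-55492897, minus strand): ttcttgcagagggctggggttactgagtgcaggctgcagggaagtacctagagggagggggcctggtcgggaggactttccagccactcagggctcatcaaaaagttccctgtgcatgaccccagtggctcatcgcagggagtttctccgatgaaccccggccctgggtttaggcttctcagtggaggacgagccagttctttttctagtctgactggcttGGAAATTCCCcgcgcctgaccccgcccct
Il6 (chr5:30012864-30013113, plus strand): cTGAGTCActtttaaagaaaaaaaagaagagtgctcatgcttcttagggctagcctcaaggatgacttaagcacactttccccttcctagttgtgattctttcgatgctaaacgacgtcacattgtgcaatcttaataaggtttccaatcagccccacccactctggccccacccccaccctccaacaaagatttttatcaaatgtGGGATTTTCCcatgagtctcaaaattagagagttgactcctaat
Ifnb1 (chr4:88522795-88523044, minus strand): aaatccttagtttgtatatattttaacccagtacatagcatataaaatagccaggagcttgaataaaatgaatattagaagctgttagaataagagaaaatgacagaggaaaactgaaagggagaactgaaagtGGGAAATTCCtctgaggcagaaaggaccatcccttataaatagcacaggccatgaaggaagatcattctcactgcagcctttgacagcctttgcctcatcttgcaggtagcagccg
Cxcl10 (chr5:92348890-92349139, minus strand): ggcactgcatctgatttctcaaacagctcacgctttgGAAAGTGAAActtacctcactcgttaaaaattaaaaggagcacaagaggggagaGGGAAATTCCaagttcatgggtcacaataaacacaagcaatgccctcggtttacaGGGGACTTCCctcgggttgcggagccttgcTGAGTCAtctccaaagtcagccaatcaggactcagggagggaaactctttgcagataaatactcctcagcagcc
Ifit1 (chr19:34640639-34640888, plus strand): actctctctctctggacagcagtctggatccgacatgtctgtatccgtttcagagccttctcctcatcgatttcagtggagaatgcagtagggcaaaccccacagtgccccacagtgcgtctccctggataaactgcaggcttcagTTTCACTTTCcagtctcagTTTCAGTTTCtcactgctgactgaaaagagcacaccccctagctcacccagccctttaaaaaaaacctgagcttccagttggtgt
Il12b (chr11:44399813-44400062, plus strand): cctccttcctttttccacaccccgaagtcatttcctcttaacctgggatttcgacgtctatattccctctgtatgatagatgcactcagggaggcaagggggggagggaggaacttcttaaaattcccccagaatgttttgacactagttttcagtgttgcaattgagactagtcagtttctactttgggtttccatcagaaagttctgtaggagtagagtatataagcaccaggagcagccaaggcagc
Ptgs2 (chr1:150099781-150100030, plus strand): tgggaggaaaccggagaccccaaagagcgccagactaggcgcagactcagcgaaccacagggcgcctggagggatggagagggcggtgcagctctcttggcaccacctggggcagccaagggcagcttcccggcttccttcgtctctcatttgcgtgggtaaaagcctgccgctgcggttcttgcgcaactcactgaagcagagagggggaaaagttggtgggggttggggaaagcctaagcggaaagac
Nfkbia, which encodes an inhibitor of NF-kB, had 1 NF-kB match, 29 bases before its start. Il6 had an NF-kB match 44 bases and an AP-1 match 249 bases before its start. Ifnb1 had an NF-kB match at 116 bases. Cxcl10 had all 3 kinds: NF-kB at 159 and 104 bases, an interferon-stimulated response element at 213 bases and AP-1 at 74 bases. Ifit1 had 2 interferon-stimulated response elements, at 104 and 85 bases, and no other match. The windows of Tnf, Il1b, Socs3, Cxcl9, Acod1 and Irf7, which also rose, held none of these motifs either.

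Such matches were counted in the windows of 9615 of the 11984 tested genes that the promoter table holds. An NF-kB match was found in 5.25% of their 12209 windows, a response element in 2.85% and an AP-1 match in 4.66%. Among the 367 windows of genes that were called at least 10-fold higher with LPS in KO cells, the shares were 9.26%, 13.4% and 14.4%. In the 1661 windows of genes at least 2-fold higher, which include these, they were 6.8%, 6.86% and 7.41%. In the 1706 windows of genes at least 2-fold lower they were 4.75%, 1.76% and 5.22%, and in the 4653 windows of genes not called 4.92%, 2.41% and 4.45%. The cyclic AMP response element (TGACGTCA) was in 2.59% of the windows of tested genes and in 2.17% of those of the genes at least 2-fold higher. It was in 0.817%, or 3 windows, of those of the genes at least 10-fold higher. A match is a run of letters, not a measured binding site.

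Total counts over 1 transcript per gene were 10578210 to 13542953 in the KO libraries, and 3 counts corresponded to 0.2215 to 0.2836 CPM (counts scaled to library size, the unit of the levels below) in them. Levels are given after TMM scaling, which sets libraries to a common level for most genes, and each value printed with ± is a log2 fold change with its standard error, in sentences with "rose by" too. Macrophage markers were abundant in every KO library: Csf1r, the M-CSF receptor, stood at 1164, 1286 and 1209.8 CPM in untreated replicates 1, 2 and 3 and at 1132, 1262 and 1138 CPM with LPS, and Adgre1, which encodes F4/80, at 929.7, 969.6 and 889 CPM and 1343, 1524 and 1347 CPM. Dot1l itself was at 97.8, 85.7 and 86.4 CPM in untreated KO and 73.3, 65.3 and 70.2 CPM in LPS-treated KO libraries, and at 82.4, 111 and 111 CPM and 67.3, 69.2 and 60.6 CPM in WT. One value per transcript does not resolve a deleted exon, so this level checks no label. Lyz2, the lysozyme gene that the labels name, was at 2615, 3032 and 2629 CPM and 2975, 3439 and 2991 CPM in KO, below 7214, 5729.5 and 5806 CPM and 7977, 6409 and 6622 CPM in WT. Replicate 2 had Y-linked transcripts in both KO groups (Ddx3y at 104 CPM untreated and 94.997 CPM with LPS) and replicates 1 and 3 had Xist instead, so the 3 replicates differ in sex. The scaling factors differed by condition, from 1.22 to 1.26 in untreated and from 0.805 to 0.835 in LPS-treated KO libraries. With total counts alone, the median change of all tested genes moved by -0.59 on the log2 scale, so directions of genes with small changes hold relative to the median gene.

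With LPS, 3633 of the 11984 tested genes rose in KO macrophages (30.3%) and 3700 fell (30.9%) by edgeR's quasi-likelihood test at an adjusted p under 0.05. At least 2-fold changes made up 1628 of the increases (13.6% of the tested genes) and 1655 of the decreases (13.8%). With upper quartile scaling 2520 rose and 5418 fell, and with total counts alone 1777 rose and 7823 fell. More than 10-fold changes numbered 398 among the increases and 90 among the decreases, and 89 genes rose more than 100-fold. The change had the same sign in all 3 pairs of equally numbered libraries for 7325 of the 7333 called genes. These genes were called from the same libraries, so the shared sign adds no separate support. In the plot of change against mean level, the most abundant transcripts lie near no change. Several of the largest increases, those of Il6 and Il12b among them, started near 0 without LPS.

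**Figure D1:**
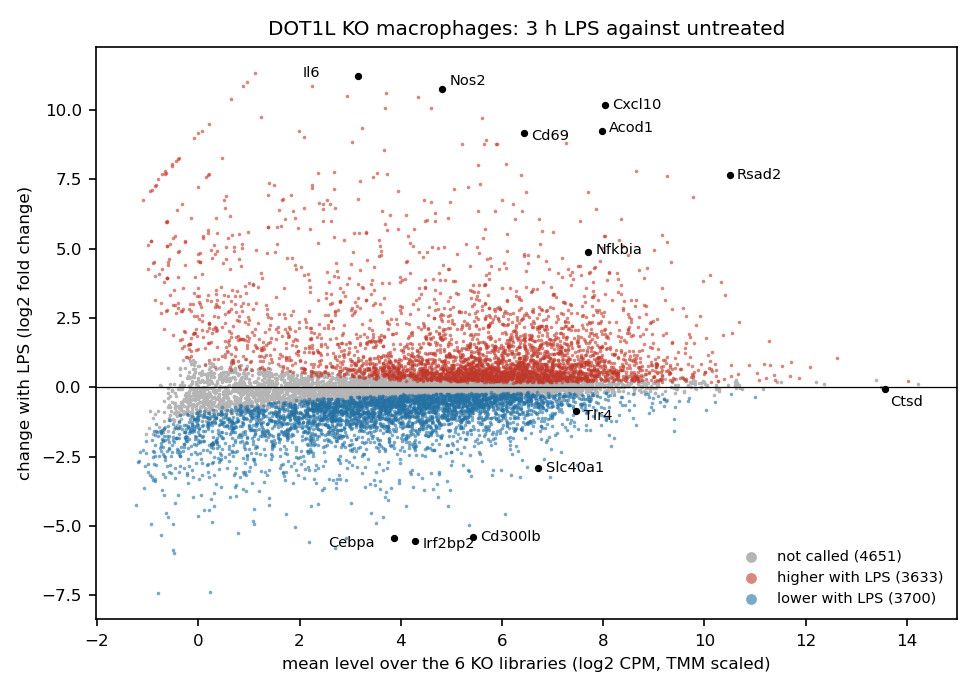
Each point is 1 of the 11984 tested genes, with its mean level over the 6 KO libraries (log2 CPM) on the horizontal axis and its log2 fold change with LPS on the vertical axis; red and blue mark the 3633 genes called higher and the 3700 called lower. Increases reach past 10 on the log2 scale, while the largest named decrease, that of Irf2bp2, is -5.54.

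Among genes whose mean log2 CPM was 3 or more, the largest increases included those of 2 cytokine genes, 2 chemokine genes and 3 enzymes. Il6, an inflammatory cytokine and fever signal, went from 0.186, 0.0773 and 0.065 CPM in untreated replicates 1, 2 and 3, or 5 reads in all, to 313, 216 and 356 CPM with LPS, 2619.5-fold (95% interval 1122 to 8069) by pooled reads. Nos2, the inducible nitric oxide synthase, stood at 0.808, 0.0773 and 1.04 CPM and then at 1152, 1079 and 1337 CPM (10.77 ± 0.32, adjusted p = 4.78e-12). Il12b, a subunit shared by IL-12 and IL-23, went from 0.186, 0.232 and 0.325 CPM to 389, 388 and 452 CPM, 1653-fold (95% interval 923 to 3311) by pooled reads. Cxcl10 and Cxcl9 attract T cells through CXCR3. Cxcl10 had 7.96, 6.57 and 8.19 CPM without and 8539, 9164 and 8878 CPM with LPS (10.19 ± 0.14, adjusted p = 8.04e-15). Cxcl9 had 0.994, 0.232 and 0.78 CPM and 787, 738 and 748 CPM (10.07 ± 0.26). They also included Acod1 and Ptgs2, described with their pathways, the protease inhibitor Serpina3g (1107-fold (95% interval 659 to 2025)) and Adamts4, a protease that cleaves proteoglycans (678-fold (95% interval 396 to 1275)). In each of these genes all 3 LPS-treated libraries lay above all 3 untreated ones, a property of 36.8% of all tested genes.

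The largest decreases included regulators of transcription. Irf2bp2, a corepressor that binds IRF2, stood at 119.5, 135 and 133 CPM untreated and 2.57, 2.95 and 2.82 CPM with LPS (-5.54 ± 0.14, adjusted p = 9.39e-13). Cebpa, a factor of myeloid differentiation, fell from 87.8, 100.4 and 89.7 CPM to 2.21, 2.22 and 1.97 CPM (-5.43 ± 0.18), and Lyl1, a helix-loop-helix factor of blood cells, fell too (-4.89 ± 0.19). Cd300lb, an activating receptor, went from 265, 282 and 281 CPM to 6.46, 5.82 and 7.42 CPM (-5.39 ± 0.15). The stress gene Sesn1 (-4.98 ± 0.20), the chemokine receptor Cxcr4 (-4.67 ± 0.26), the phosphatidate phosphatase Lpin1 (-4.28 ± 0.20), the anion transporter Slc26a11 (-4.54 ± 0.15) and Lhfpl2 (-4.57 ± 0.11) were also among them. These 9 genes were picked among those whose libraries of the 2 conditions did not overlap. In 37.3% of all tested genes the LPS-treated libraries lay below the untreated ones without overlap. Because the use of strand is not known, reads of Adamts4, Slc26a11, Lyl1 and, further on, Nr1h3, Setdb2, Cebpd, Mmp19, Pfkp, Nlrp1b, Acsl3 and Ciita may include those of a tested gene that overlaps each.

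Per length, the transcripts highest in untreated KO cells were those of ferritin, lysosomal, cytoskeletal and secreted proteins. By the authors' RPKM (reads per kilobase of transcript, scaled to library size), the mean level was 7188 and 5735 RPKM without and with LPS for Fth1, the ferritin heavy chain, 7097 and 4482 RPKM for cathepsin D (Ctsd) and 5362 and 3842 RPKM for Gpnmb, a glycoprotein of lysosomes. Psap, Tmsb4x, Ctsb, Lgals3, Lyz2, Spp1 and Actb followed at 2549 to 4852 RPKM without LPS. With LPS, 2 genes that were low before entered the top 10: Cxcl10, at 7.67 and 5957 RPKM, and Rsad2, which encodes the antiviral enzyme viperin, at 30.03 and 3988 RPKM. Cxcl10 was then the highest of all genes per length. RPKM values carry no TMM scaling, and Ctsd did not pass the test on counts under TMM scaling (-0.07 ± 0.08, adjusted p = 0.455), but fell with upper quartile scaling (-0.34, adjusted p = 0.00268) and with total counts alone (-0.67, adjusted p = 1.23e-05).

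The receptor of LPS and its partners moved in opposite directions. Of 20 receptor, adaptor and kinase genes, 12 rose and 3 fell (median log2 fold change 0.56, and -0.04 with total counts alone). Tlr4 itself fell from 250.2, 239 and 224 CPM to 125, 147 and 125 CPM (-0.85 ± 0.11, adjusted p = 1.19e-05). Cd14, the coreceptor, rose from 177, 159 and 187 CPM to 911, 1158 and 995 CPM (2.55 ± 0.15, adjusted p = 2.34e-09). The kinase genes Ripk2 (4.82 ± 0.09) and Irak2 (2.51 ± 0.12) rose, and Irak4, the first kinase of the MyD88 complex, fell (-0.55 ± 0.13). The adaptor gene Myd88 was among those that rose, and Ticam1, which encodes TRIF, was not called, though it fell with upper quartile scaling (-0.53, adjusted p = 0.00882) and with total counts alone (-0.86, adjusted p = 0.00021). Of 9 other Toll-like receptors, 6 rose and 2 fell. Tlr2, for bacterial lipoproteins, rose (4.04 ± 0.11), as did Tlr3, for double-stranded RNA (3.31 ± 0.16), while Tlr13, for bacterial ribosomal RNA, fell (-1.54 ± 0.09). The direction of Tlr4, Cd14, Ripk2, Irak2, Tlr2, Tlr3 and Tlr13 was the same with total counts alone.

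Genes of NF-kB and of its brakes rose together. Of 14 subunits, inhibitors and kinases of NF-kB, 13 rose and 0 fell (median 2.76, against -0.02 over all tested genes), and with total counts alone 11 rose and 1 fell. Nfkbia, the inhibitor with the match near its start shown above, went from 39.4, 36.6 and 39.7 CPM to 1064, 1194 and 1128 CPM (4.87 ± 0.10, adjusted p = 2.41e-13). Nfkbiz, a nuclear cofactor needed for a second wave of genes, rose by more (6.63 ± 0.14), and Nfkbie, another inhibitor, by 4.49 ± 0.19. Among 19 feedback inhibitors, 16 rose and 3 fell. Tnfaip3, which encodes the ubiquitin-editing enzyme A20, stood at 75, 66 and 64.5 CPM and then 1836, 2024 and 1775 CPM (4.78 ± 0.14, adjusted p = 3.83e-12). The inhibitors of cytokine signalling Socs3, Socs1 and Cish rose by 8.77 ± 0.18, 7.75 ± 0.19 and 6.79 ± 0.21. Socs3 had 2.98, 2.94 and 2.4 CPM before and 1149, 1356 and 1138 CPM after. In these 7 genes the LPS-treated libraries lay above the untreated ones without overlap, as in 36.8% of all tested genes. The 3 that fell were Tnfaip8l2 (-0.82 ± 0.11) and 2 genes of proteins that bind AU-rich elements of mRNA, Zfp36l1 (-3.39 ± 0.36) and Zfp36l2 (-2.86 ± 0.12). Their relative Zfp36, which encodes tristetraprolin, rose (3.16 ± 0.15), as did Zc3h12a, the gene of the mRNA-cleaving enzyme regnase-1.

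Early response factors split at 3 hours. Of 23 tested members of that list, 11 rose and 8 fell (median 0.19, and -0.41 with total counts alone). Fos, an AP-1 subunit, fell from 54.9, 54.7 and 42.5 CPM to 12.5, 17.6 and 14.5 CPM (-1.77 ± 0.20, adjusted p = 2.98e-06), and Myc (-2.98 ± 0.13) and Egr3 (-3.30 ± 0.24) fell too. Batf2 (6.03 ± 0.12), Batf (4.12 ± 0.17) and Cebpd (3.27 ± 0.16), all of the basic leucine zipper class, rose. The dual-specificity phosphatases, which switch off MAP kinases, counted 4 higher and 4 lower of 11, near the 30.3% and 30.9% of all tested genes, and 4 and 6 with total counts alone. Dusp2 rose from 3.42, 2.94 and 4.35 CPM to 60.6, 112 and 73.1 CPM (4.51 ± 0.29), with replicate 2 highest of the LPS-treated libraries, and Dusp16 (3.03 ± 0.11) and Dusp1 (1.06 ± 0.17) rose. Dusp6, which acts on ERK, fell from 75.3, 82.1 and 74.1 CPM to 10.8, 8.49 and 8.55 CPM (-3.05 ± 0.17), as did Dusp4 (-2.18 ± 0.24) and Dusp7 (-1.69 ± 0.08).

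Of 27 inflammatory cytokine genes, 24 passed the filter on low counts, 22 rose and 0 fell (1 fell with total counts alone). Genes near 0 without LPS passed the filter through their level with LPS, so the count is a description. The median log2 fold change was 6.83, and 5.68 with the 3 genes that had 0 reads in untreated KO cells (Il12a, Csf2 and Il19) set at their lower bounds. Tnf, an early inflammatory cytokine, went from 26.7, 20.6 and 27.1 CPM to 2134, 1986 and 2314 CPM (6.43 ± 0.26, adjusted p = 9.82e-11). Il1b, the fever cytokine made as an inactive precursor, went from 2.67, 2.94 and 2.6 CPM to 1279, 889.6 and 1458 CPM (8.79 ± 0.21, adjusted p = 6.40e-13), with replicate 2 lowest of the LPS-treated libraries. Il10, which restrains macrophages, went from 1.24, 1.78 and 1.88 CPM to 25.2, 28.5 and 23.9 CPM (3.98 ± 0.17, adjusted p = 1.13e-10). It rose 15.8-fold, Tnf 86.3-fold and Il1b 441-fold. Edn1, the gene of the vasoconstrictor endothelin-1, had 6 reads in the 3 untreated libraries and 227, 163 and 254 CPM with LPS, 1589.5-fold (95% interval 729.9 to 4333) by pooled reads. Osm and Tgfb1 were tested and not called.

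**Figure D2:**
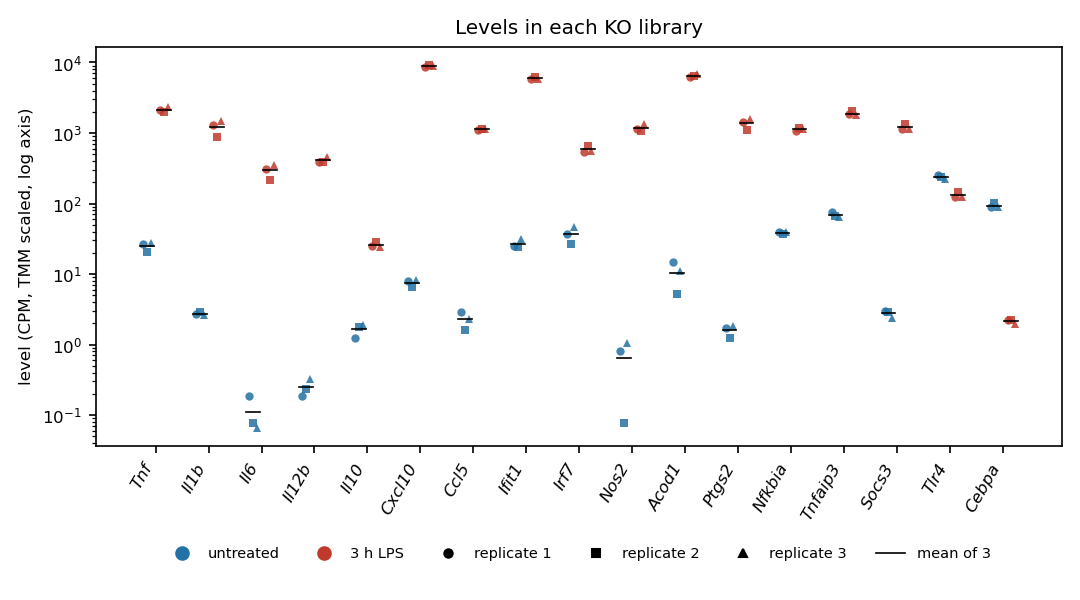
Levels of 17 named genes in each of the 6 KO libraries (CPM after TMM scaling, log axis), blue untreated and red after 3 hours of LPS; the symbol gives the replicate and the bar the mean of 3. Untreated and LPS-treated libraries do not overlap in any of the 17. Of all tested genes, 36.8% were higher and 37.3% lower with LPS without overlap. Il6 and Il1b are lowest in replicate 2 among the LPS-treated libraries.

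Most chemokine genes rose with the cytokines. Of 12 CC chemokines, 11 rose (median 5.05), and Ccl6 was not called, while 1 of the 12 fell with total counts alone. Of 11 tested CXC and CX3C chemokines, 9 rose (median 5.08), while Cxcl14 and Ppbp were not called. Ccl5, which attracts T cells and monocytes, went from 2.92, 1.62 and 2.27 CPM to 1089, 1151 and 1129 CPM (8.92 ± 0.17, adjusted p = 1.33e-13). The monocyte attractant Ccl12 (6.10 ± 0.23) and the T cell attractant Ccl22 (7.08 ± 0.28) rose. Ccl22 had 195, 113 and 215 CPM with LPS, lowest in replicate 2. Cxcl11, another ligand of CXCR3, had 2 reads in the untreated libraries and 94.1, 117 and 106 CPM with LPS, 2346-fold (95% interval 649 to 19379) by pooled reads. Receptors did not follow the ligands: of 7 tested, 2 rose and 3 fell. Ccr2, the receptor of Ccl2 and a mark of monocytes, fell from 34.4, 51.9 and 42.2 CPM to 10.2, 17.4 and 10.8 CPM (-1.74 ± 0.36, adjusted p = 0.000888), and Cxcr4 from 55, 68 and 62.1 CPM to 2.3, 3.05 and 1.88 CPM. Ccrl2, a receptor that binds chemerin, rose (5.55 ± 0.16), as did Ccr3 (1.09 ± 0.14).

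Ifnb1, the interferon beta gene, had 0 reads in the 3 untreated KO libraries and 7.34, 6.19 and 5.73 CPM with LPS, at least 95.3-fold higher against a floor of 3 counts over the untreated group. Ifna2, Ifna4 and Ifng had too few reads to be tested. The receptor genes Ifnar1 (1.36 ± 0.08), Ifnar2 (1.10 ± 0.14) and Il10ra (2.06 ± 0.10) rose. Interferon-stimulated antiviral genes rose as a block: 39 of 41 listed passed the filter, and 39 rose (median 3.38). Summed over the list, they held 2658 to 3073 CPM in untreated and 69490.0 to 75103 CPM in LPS-treated KO libraries. Ifit1, which binds foreign RNA ends and carries the 2 response elements shown above, went from 24.9, 24 and 31.5 CPM to 5782, 6319.9 and 5855 CPM (7.80 ± 0.25, adjusted p = 8.29e-12). Rsad2 went from 94.7, 92.5 and 119.8 CPM to 19818, 21447 and 20191 CPM (7.64 ± 0.25), and Ifi205, of a family of near-identical DNA sensors whose reads may be split between copies, rose by 8.78 ± 0.36. All 15 tested guanylate-binding proteins and immunity-related GTPases, which attack the vacuoles of intracellular pathogens, rose as well (median 6.08). Gbp5 went from 8.76, 5.95 and 6.63 CPM to 3130.4, 3593 and 3054 CPM (8.83 ± 0.31), Iigp1 rose by 7.67 ± 0.32 and Gbp4 by 7.32 ± 0.32, with the same caution on copies.

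Of 20 IRF, STAT and JAK genes, 15 rose and only Irf2bp2 fell, while with total counts alone 14 rose and 4 fell. Irf7, the factor that amplifies interferon production, went from 37.3, 26.7 and 46.1 CPM to 532, 658 and 561 CPM (3.99 ± 0.21, adjusted p = 1.30e-09). Irf1 (5.10 ± 0.12), Jak2 (4.35 ± 0.19) and Stat5a (4.26 ± 0.11) rose too. All 16 tested MHC class I and peptide-processing genes rose (median 1.78), led by Nlrc5, their activator (3.26 ± 0.14), the peptide transporter Tap1 (3.09 ± 0.11) and the immunoproteasome subunit Psmb9 (2.22 ± 0.12). MHC class II genes had a smaller median change: 6 of 8 tested rose and 0 fell (median 0.69), and with total counts alone 1 rose and 1 fell. H2-Aa went from 69.5, 76.5 and 79.1 CPM to 108, 119 and 116 CPM (0.61 ± 0.17, adjusted p = 0.00788), H2-Ab1 and Cd74 rose by 0.99 ± 0.35 and 0.95 ± 0.26, and Ciita, their activator, by 2.62 ± 0.19. Leaving out single KO libraries (untreated 1 or 3, or LPS-treated 2 or 3) gave H2-Ab1 an adjusted p of 0.0516 to 0.0822. Without the libraries of replicate 2 in all groups, 2 of the 8 class II genes rose. Of 12 tested ligands and receptors that steer T cells, 10 rose and 2 fell. Cd40, which receives T cell help, went from 5.16, 3.48 and 3.64 CPM to 1062, 1118 and 1109 CPM (8.05 ± 0.15), Cd69 rose by 9.16 ± 0.12 and Tnfsf4 by 7.71 ± 0.18, while the inhibitory genes Vsir (-0.91 ± 0.14) and Havcr2 (-0.86 ± 0.09) fell.

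Enzymes that make inflammatory mediators were among the largest increases. Ptgs2, the inducible cyclooxygenase of prostaglandin synthesis, went from 1.74, 1.24 and 1.82 CPM to 1417, 1088 and 1593 CPM (9.71 ± 0.21, adjusted p = 2.73e-13), lowest in replicate 2. Its pathway was mixed, with 5 higher and 4 lower of 16, and 4 and 10 with total counts alone. Pla2g4a, which frees arachidonic acid (1.85 ± 0.12), and the prostaglandin receptor Ptger4 (2.71 ± 0.13) rose, and the constitutive enzyme gene Ptgs1 (-0.46 ± 0.11), Hpgds (-0.64 ± 0.12) and Ptger2 (-0.65 ± 0.18) fell. Acod1, which makes itaconate, went from 14.9, 5.26 and 11 CPM to 6196, 6370.2 and 6788 CPM (9.26 ± 0.33, adjusted p = 2.81e-11), and Slc7a2, an arginine transporter, from 8.45, 5.41 and 7.15 CPM to 435, 287 and 378 CPM (5.70 ± 0.25). With Nos2 they were 3 of the 8 that rose among 10 tested genes of arginine, nitric oxide and itaconate metabolism, while Arg1 had too few reads to be tested.

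Lists of energy metabolism had small median changes. Of 21 genes of glycolysis and its regulator HIF1, 7 rose and 1 fell (median 0.19, and -0.40 with total counts alone). Pfkfb3, which makes the activator of phosphofructokinase (2.62 ± 0.13), the hexokinase gene Hk2 (57.1, 58.5 and 57.9 CPM to 330.2, 318 and 321 CPM, 2.48 ± 0.09) and Pfkp (1.35 ± 0.08) rose. Vegfa, the vascular growth factor, fell from 97.3, 127 and 88.8 CPM to 6.37, 8.03 and 5.83 CPM (-3.95 ± 0.25). With the replicate numbers as a block, 12 and 2 of the 21 rose and fell. Gapdh was listed at 0.696 to 2.14 CPM in the KO libraries, and genes with many near-identical copies, the ribosomal proteins among them, are uncertain in these counts. Respiratory chain genes rose in 13 of 25 with small changes (median 0.36), in 22 with the block, while with total counts alone 0 rose and 9 fell (median -0.24). Ribosomal proteins behaved alike, with 12 of 26 higher (median 0.34), 21 with the block, and 0 higher and 10 lower with total counts alone (median -0.25). Of 16 tested tricarboxylic acid cycle genes 4 rose and 2 fell, and with total counts alone 0 rose and 13 fell. Idh1, which makes NADPH in the cytosol, fell under both scalings (-0.74 ± 0.08 with TMM).

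Lipid genes had no common direction. Of 26 tested genes of cholesterol synthesis and uptake, 3 rose and 6 fell (median -0.03), with the block 9 and 11, and with total counts alone 1 and 15. Among these genes Dhcr7, of the last step of synthesis, fell (-1.03 ± 0.20), as did Sqle (-0.88 ± 0.27). Of 20 tested fatty acid synthesis genes 4 rose and 5 fell, 4 and 9 with the block and 2 and 15 with total counts alone. Acsl3, which activates fatty acids (-2.48 ± 0.13), the desaturase gene Scd2 (1243, 1059.5 and 1219 CPM to 426, 363 and 384 CPM, -1.58 ± 0.09) and the synthase gene Fasn (-0.94 ± 0.32) fell, and Acsl1 rose (2.11 ± 0.10). The call of Fasn was lost without untreated KO replicate 1 (adjusted p = 0.0687) and without LPS-treated KO replicate 2 (0.0842). Abca1, the exporter of cholesterol, was at 779, 787 and 581 CPM and 524, 593 and 462 CPM (-0.44 ± 0.28, adjusted p = 0.192), and Cd36, a receptor of oxidized lipoproteins, at 1762, 1673 and 1644 CPM and 1799, 1549 and 1622 CPM (-0.03 ± 0.14, adjusted p = 0.866). The groups of both genes overlapped. Abca1 fell with the replicate numbers as a block (adjusted p = 6.2e-07), with the 6 KO libraries alone (0.0117), without WT replicate 1 (0.00542), with upper quartile scaling (0.0342) and with total counts alone (-1.04, adjusted p = 0.00216). Cd36 fell with total counts alone (-0.62, adjusted p = 0.00283). Ch25h, which makes 25-hydroxycholesterol, had 20 reads in the untreated libraries and 46.4, 40.7 and 51.8 CPM with LPS, 103-fold (95% interval 66.3 to 169) by pooled reads. The nuclear receptor genes Pparg (-2.25 ± 0.12) and Rxra (-2.14 ± 0.14) fell and Nr1h3, which encodes LXR alpha, rose (1.05 ± 0.13). Olr1, another receptor of oxidized LDL, rose 112-fold (95% interval 72.8 to 181), and Msr1, a scavenger receptor, by 1.63 ± 0.08.

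Among inflammasome and BCL2 family genes more rose than fell under TMM scaling. Of 14 inflammasome genes 9 rose, among them the sensor Nlrp3 (74.6, 65.5 and 68.5 CPM to 541, 495 and 555 CPM, 2.93 ± 0.11), Casp4, which binds LPS in the cytosol (3.19 ± 0.13), and Mefv (4.47 ± 0.39), and 4 fell, among them Nlrp1b (-1.47 ± 0.20) and the ATP receptor P2rx7 (-0.92 ± 0.11). In the BCL2 family 9 of 14 rose and 3 fell (median 0.32), while with total counts alone 3 rose and 7 fell (median -0.27). The survival gene Bcl2a1b, 1 of several near-identical copies, rose (3.59 ± 0.23), and Bcl2 (-1.17 ± 0.18) and the death gene Pmaip1 (-1.63 ± 0.16) fell. Of 14 tested metalloproteinases and inhibitors 8 rose and 2 fell. Mmp13, a collagenase, went from 105, 90.8 and 105 CPM to 3759.7, 3705 and 3899 CPM (5.24 ± 0.13, adjusted p = 1.03e-12), and Mmp14, bound to the cell membrane, rose by 6.37 ± 0.18. Mmp9, a gelatinase, overlapped between conditions, at 60.7, 45.2 and 55.9 CPM and 77.3, 35.9 and 65.3 CPM (0.14 ± 0.30, adjusted p = 0.706), and Mmp19 fell (-0.90 ± 0.15).

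Genes that mark the resting macrophage divided. Of 19 identity genes, 9 rose and 4 fell (median 0.27, and -0.32 with total counts alone). Alongside Cebpa, the factor gene Maf fell from 511, 653 and 536 CPM to 242, 271 and 281 CPM (adjusted p = 0.000137), while Spi1, which encodes the lineage factor PU.1, rose from 195, 199 and 199.7 CPM to 430.0, 451 and 452 CPM (1.17 ± 0.09, adjusted p = 5.70e-08), and the Fc receptor gene Fcgr1 rose (1.93 ± 0.11). Of 19 tested scavenger and phagocytic receptors 12 rose and 3 fell. Clec4e, the receptor Mincle, went from 44.8, 32.2 and 39.8 CPM to 1648, 1679 and 1799.8 CPM (5.45 ± 0.16), and Cd163, for hemoglobin, from 11.1, 15 and 11.4 CPM to 3.27, 4.06 and 3.29 CPM (-1.81 ± 0.23). Cathepsin and lysosomal genes rose in 6 of 15 and fell in 1, and with total counts alone rose in 1 and fell in 9, with 37811 to 40503 CPM summed over the list in untreated and 41525 to 45690.0 CPM in LPS-treated libraries. Ctsc, which activates granule proteases, rose (1.45 ± 0.12), and Tfeb, the factor that drives lysosomal genes, fell from 33.7, 39.3 and 41.9 CPM to 2.83, 4.71 and 3.48 CPM (-3.38 ± 0.20). Of 14 tested alternative activation genes 6 rose and 3 fell, and 5 and 7 with total counts alone. Il4ra, which receives interleukin 4, rose from 89.1, 97.5 and 80.2 CPM to 349, 571 and 342 CPM (2.24 ± 0.22), highest in replicate 2, Tgm2 rose by 2.03 ± 0.10, and Egr2 fell (-1.73 ± 0.12).

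Growth and stress programmes fell in part. Of 32 cell cycle and replication genes 17 fell and 4 rose (median -0.41). E2f2, a factor of entry into S phase, fell from 23, 23.2 and 23 CPM to 2.57, 2.31 and 1.97 CPM (-3.33 ± 0.19) and the helicase subunit gene Mcm2 by less (-1.07 ± 0.25). The 4 that rose included the arrest gene Cdkn1a (245, 252 and 237 CPM to 1682, 1760.4 and 1791 CPM, 2.83 ± 0.09) and Ccnd2, a cyclin of G1 (4.76 ± 0.13). Of 15 genes of the unfolded protein and ATF4 responses 9 fell and 3 rose (median -1.21). The sensors Eif2ak3, which encodes PERK (-2.30 ± 0.14), and Ern1, which encodes IRE1 (-1.61 ± 0.14), fell, whereas Hspa5, the chaperone BiP, went from 810.0, 789 and 809.8 CPM to 1501, 1601 and 1521 CPM (0.94 ± 0.08). Among 20 NRF2 antioxidant genes 6 rose and 5 fell, 12 and 5 with the block and 4 and 14 with total counts alone. Nfe2l2, the gene of NRF2, fell from 330.3, 326 and 318 CPM to 123, 113 and 141 CPM (-1.37 ± 0.16), while its transcript with the lowest total count had a log2 fold change of 0.45. Its targets Gclc (-1.76 ± 0.13) and Hmox1 (-1.21 ± 0.15) fell, and its inhibitor Keap1 rose (1.35 ± 0.09), as did Sod2, the mitochondrial superoxide dismutase (4.12 ± 0.12). Slc40a1, which encodes ferroportin, the exporter of iron, fell from 274, 308 and 283 CPM to 35.6, 43.6 and 36.3 CPM (-2.90 ± 0.10, adjusted p = 1.92e-11), and Lcn2, which captures bacterial iron carriers, rose (3.35 ± 0.32).

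Genes of DOT1L complexes and of other histone methylation enzymes rose and fell in like numbers under TMM scaling, and more fell than rose with total counts alone. Dot1l fell (-0.37 ± 0.11, adjusted p = 0.0107, and 0.0785 without the libraries of replicate 2). Of 17 tested genes of DOT1L and of the elongation complexes it joins, 7 rose and 7 fell (median 0.03), and 4 and 9 with total counts alone (median -0.56). Mllt6 (2.68 ± 0.10), Aff1 (2.10 ± 0.11) and Ell2 (1.60 ± 0.08) rose. Ell (-1.69 ± 0.15) and Hexim1, an inhibitor of transcription elongation (-1.19 ± 0.11), fell. Of 30 histone methyltransferases and demethylases 8 rose and 11 fell, near the 30.3% and 30.9% of all tested genes. With upper quartile scaling 5 rose and 18 fell, and with total counts alone 2 rose and 22 fell (median -0.73). Setdb2, of a family that methylates lysine 9 of histone H3, went from 14.3, 13.4 and 14.7 CPM to 171, 197 and 179 CPM (3.69 ± 0.18), and Kdm5b (-1.96 ± 0.18), Setd7 (-1.52 ± 0.18) and Kdm3a (-1.31 ± 0.10) fell. Of 8 HOXA, MEIS and PBX genes, studied with DOT1L in leukemia, 2 had enough reads to be tested, and both fell: Meis1 (-1.29 on the log2 scale) and Pbx3 (-0.85 ± 0.21).

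**Figure D3:**
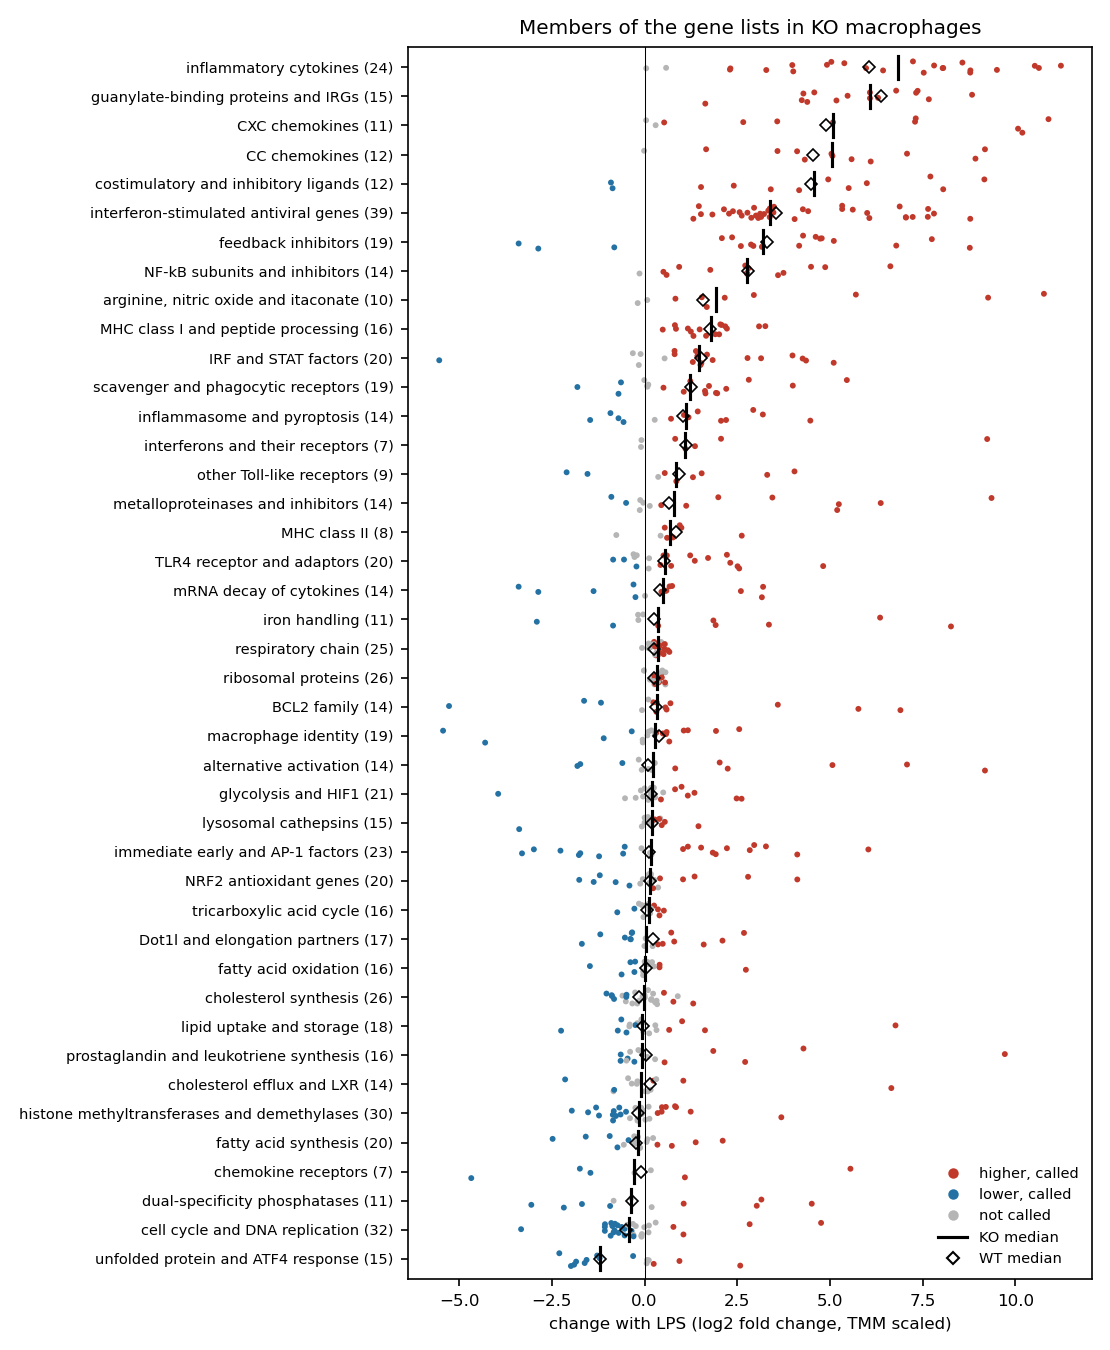
Each point is a tested member of a gene list (number in brackets), placed by its log2 fold change with LPS in KO cells under TMM scaling; red and blue are called, grey is not, the bar is the KO median and the diamond the WT median. Medians of the lists drawn run from 6.83 for inflammatory cytokines (5.68 with 3 genes of 0 untreated reads at their bounds, below the 6.08 of guanylate-binding proteins) to -1.21 for the unfolded protein and ATF4 response, and those between about -0.6 and 0.6 lie within the shift that total counts alone give.

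Markers of other cell types were measured in the same libraries. Of 12 neutrophil markers 6 could be tested and only S100a9 rose (0.90 ± 0.24), with 0 higher and 1 lower with total counts alone, and the list summed to 113 to 114 CPM without and 117 to 129.8 CPM with LPS. Of 10 mast cell and basophil markers 5, Fcer1a and Ms4a2 among them, had 0 reads in all 6 KO libraries. The 2 that could be tested, Kit and Gata2, fell. Reads were also 0 in all 6 for the T cell genes Cd3g and Cd8a, the natural killer gene Ncr1 and the red cell genes Hba-a1, Hba-a2, Hbb-bs and Klf1. Lymphocyte markers summed to 31.9 to 39.7 CPM and 65.6 to 80.9 CPM, stromal markers to 23.7 to 31.2 CPM and 131 to 153 CPM, and dendritic cell markers to 154 to 189.6 CPM and 138 to 204 CPM. Of 6 tested dendritic cell markers 3 rose, Batf3, Xcr1 and Zbtb46, and 0 fell, while with total counts alone 2 rose and 2 fell. The 1 lymphocyte marker called was Lck, a kinase of T cells, which rose from 0.932, 0.309 and 0.585 CPM to 40.2, 46.6 and 35.8 CPM (6.00 ± 0.22). In the stromal list Kdr, a receptor of VEGF, rose from 27.5, 20.4 and 26.4 CPM to 121, 119 and 138 CPM (2.35 ± 0.13). Monocyte markers included Ccr2, which fell, and 6 genes that rose, among them Vcan (6.70 ± 0.15), while with total counts alone 3 of the 9 rose and 3 fell. The part of such cells in the LPS response was not tested. Osteoclast markers summed to 918 to 1046 CPM and 874 to 945 CPM. Of 8 tested osteoclast markers 2 rose and 3 fell. Acp5 rose (3.87 ± 0.15) and Itgb3 (-1.16 ± 0.14) and Nfatc1 (-1.07 ± 0.15) fell.

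The 3 KO replicates differed in the levels of their genes. Replicate 2 stood farther from the others (root mean square distance 0.374 and 0.375 on the log2 scale with LPS) than replicates 1 and 3 from each other (0.292), and the same held without LPS (0.345 and 0.345, against 0.253). Among the 1628 genes at least 2-fold higher, replicate 2 was the lowest LPS-treated library in 25.6%. It was the lowest in 14 of the 22 called cytokines and 6 of the 8 CXC chemokines called at least 2-fold higher, and the highest in 34 of the 39 interferon-stimulated genes and 13 of the 15 guanylate-binding proteins and related GTPases. The median member of the cytokine list lay 0.15 below the mean of the 3 libraries in replicate 2 on the log2 scale (deviation -0.151), and that of the interferon-stimulated genes 0.08 above it. It was the highest library in 914 of the 1628. Replicate 2 is the one with Y-linked transcripts, and the part of sex in this difference was not tested. Cell cycle genes were lowest in replicate 2 in 23 of 32 and cholesterol synthesis genes in 20 of 26, against 33.2% of all tested genes. These are ranks of levels with LPS, not of changes. The median log2 change between libraries numbered 1, 2 and 3 was 5.02, 5.09 and 4.85 for the 22 cytokines. It was 6.80, 6.08 and 6.89 for the 8 CXC chemokines and 3.34, 3.60 and 3.21 for the 39 interferon-stimulated genes. For cell cycle genes it was -0.44, -0.43 and -0.41, and for cholesterol synthesis genes -0.045, 0.030 and 0.0034.

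**Figure D4:**
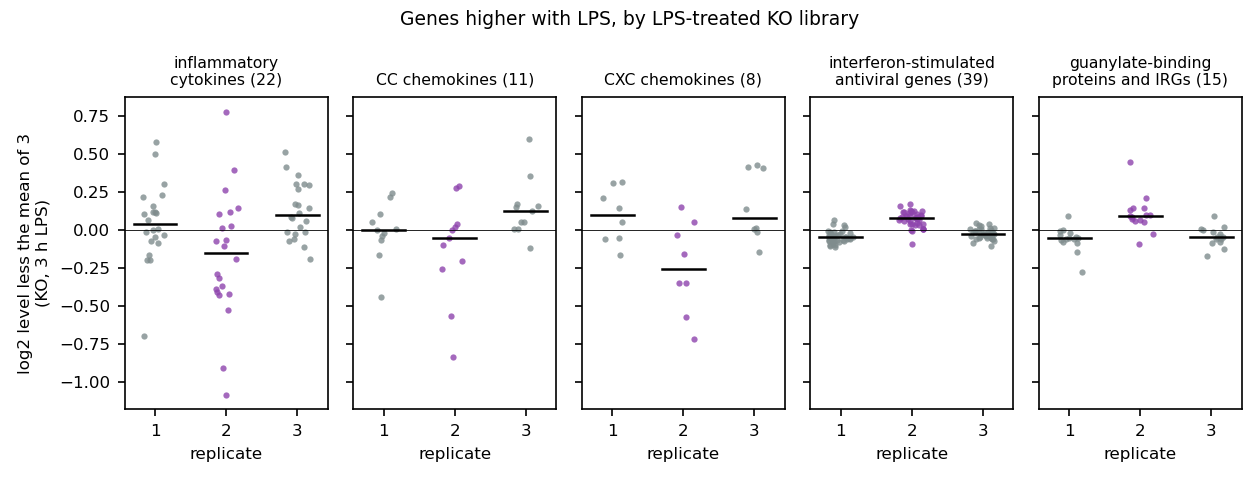
Genes of 5 lists that were called at least 2-fold higher with LPS in KO cells, each shown by its log2 level in LPS-treated replicates 1, 2 and 3 less the mean of the 3; bars are medians and replicate 2 is purple. Replicate 2 lies below the others for most cytokines and CXC chemokines (medians -0.151 and -0.255) and above them for interferon-stimulated genes and guanylate-binding proteins (0.08 and 0.088).

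Whether the response depends on DOT1L was tested as the interaction of genotype and LPS over all 12 libraries. By edgeR's quasi-likelihood test it called 0 of 11984 genes in either direction (0% in each), with 288 genes at an unadjusted p under 0.05. DESeq2 and limma-voom also called 0. That fit held no term for equally numbered libraries. With the replicate numbers as a block over the 12 libraries, the same test had 904 genes at an unadjusted p under 0.05 and called 0. A count of 0 does not show that the responses are equal. In WT cells 3309 genes rose (27.6%) and 3567 fell (29.8%). Called in both genotypes in the same direction were 6365 genes, or 86.8% of the KO calls and 92.6% of the WT calls, and 0 were called in opposite directions. The difference between the genotypes' log2 fold changes was within 0.5 for 91.6% of tested genes. Across the 11984 genes, which are not independent replicates, the 2 sets of fold changes had a Pearson correlation of 0.973. For single genes the difference (KO less WT) was 0.33 ± 0.30 for Tnf, -0.24 ± 0.30 for Il1b, 0.33 ± 0.12 for Nfkbia and -0.54 ± 0.16 for Cxcl10, each with an adjusted p of 1.

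WT replicate 1 stood apart from the other WT libraries, at distances of 0.468 to 0.541 against 0.332 and 0.399 between replicates 2 and 3. Without it in both conditions, the interaction called 17 genes higher in KO (0.14% of those tested) and 7 lower (0.0577%), named here after their values were seen. Pfkfb3 had the lowest adjusted p of the increases, with a response of 2.60 in KO and 1.58 in WT (difference 1.02 ± 0.12, adjusted p = 0.000961). It stood at 35.2, 36.1 and 33.4 CPM and 197, 243 and 203 CPM in KO, and at 36.5, 39.3 and 43.6 CPM and 168, 128 and 116 CPM in WT. The metallothionein gene Mt2 (1.03 ± 0.13), the interleukin 1 antagonist gene Il1rn (0.75 ± 0.10), Tnfaip3 (0.69 ± 0.10) and Pla2g4a (0.80 ± 0.12) also responded more in KO, with adjusted p of 0.00157 to 0.00454. Tsc22d3, a target of glucocorticoids, fell further in KO (-0.77 ± 0.14, adjusted p = 0.0308), and the increase of AW112010 was smaller in KO (-1.15 ± 0.20, adjusted p = 0.0192). With all 12 libraries the difference was 0.83 ± 0.18 for Pfkfb3 and 0.56 ± 0.17 for Tnfaip3, with adjusted p of 1. With the replicate numbers as a block and without WT replicate 1, 70 genes were higher (0.577%) and 80 lower (0.66%), and they held the 24 genes in the same directions. Interferon-stimulated genes had a smaller fold change in KO than in WT in 31 of 39 (median difference -0.18, and -0.35 without WT replicate 1), and guanylate-binding proteins and related GTPases in 14 of 15 (-0.37 and -0.72). Over all tested genes 5423 of 11984 were smaller or more negative (median difference 0.02). Without WT replicate 1 this held for 6475 of 11982 genes (median difference -0.019). These lists were not tested as lists.

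**Figure D5:**
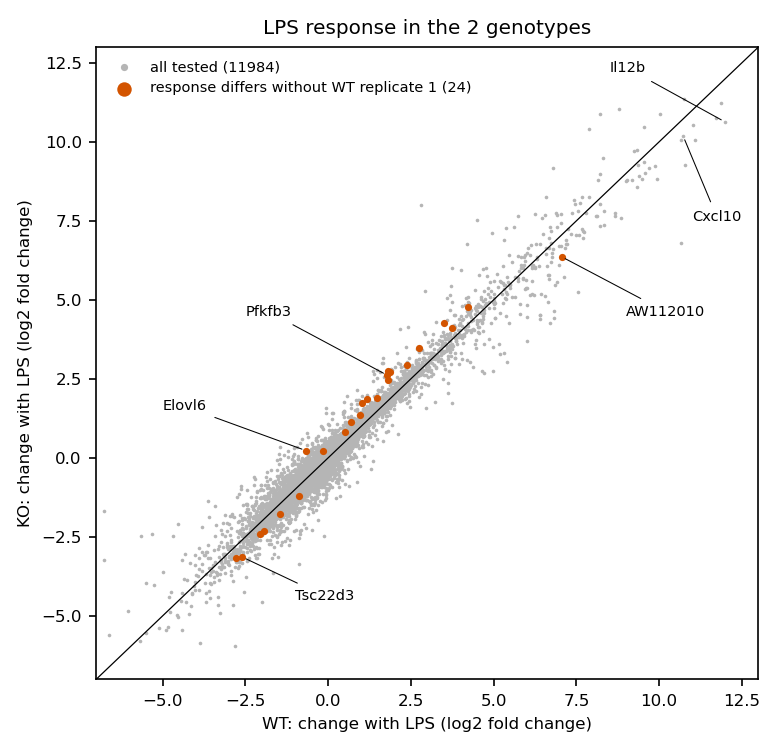
Each point is 1 tested gene, with its log2 fold change with LPS in WT cells on the horizontal axis and in KO cells on the vertical axis; the line marks equal responses. Orange points are the 24 genes whose response differed between genotypes without WT replicate 1 (with all 12 libraries 0 differed), and they lie close to the line, with differences of 0.31 to 0.94 in size with all 12 libraries.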

How the data were processed

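RNA of 12 cultures was sequenced as single-end 50-base reads from poly(A)-selected libraries, per the labels' protocols. Reads were aligned to mm10 with STAR 2.5.2b, and SAMtools 1.3.1 is named too, per the submitters' processing notes; no source used here gives the counting tool or its use of strand. The authors deposited read counts and RPKM values per transcript, with column headers that name each library. RPKM served only to compare levels between genes and, as log2(RPKM + 0.1) in limma 3.58.1, as an alternative.

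For each gene the transcript with the highest total count was kept (24445 genes of 35745 transcripts), and names came from RefSeq (GRCm38.p6) and GENCODE; 117 transcripts without a name, 0.259 to 0.738% of counts, were left out. Every column was mapped to a sample. edgeR 4.0.16 (TMM, low-count filter, robust quasi-likelihood F test, R 4.3.3) fitted all 12 libraries in 4 groups, with Benjamini-Hochberg adjustment at 0.05 over 11984 genes. It was also run on simulated data that held few changed genes and no pairs of libraries. That run does not check the scaling or the pairing. Named genes were 30 key genes, the 10 largest increases and decreases among genes with a mean log2 CPM of 3 or more, up to 3 called members per list and direction, and the 10 highest by RPKM; others are said to be so or were named to check the cells, and some genes that the rule takes are not reported here. The members and lists were chosen with earlier results of these data known. Deviations from group means of equally numbered libraries correlated in all pairs (0.197 to 0.454 in KO, 0.298 to 0.567 in WT), so the numbers were taken to pair libraries. Between libraries of different numbers the highest correlation was 0.147 in KO and 0.135 in WT. The main fit held no term for these pairs, which the block adds. Intervals of pooled folds are 95% and cover counting error only.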

Additional observations from a re-analysis of the deposited data

How the results depend on the processing

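Counts of genes in the KO response stayed within 1.5 times the reported ones under DESeq2, limma-voom, other filters, upper quartile scaling, the KO libraries alone and the transcript with the lowest total count. With total counts alone 1777 rose and 7823 fell, 3685 of them at least 2-fold lower, and with limma on log2(RPKM + 0.1) 1727 rose and 7533 fell, 1053 and 3397 of them at least 2-fold. With the replicate numbers as a block over 12 libraries 4348 rose and 4353 fell; of the genes named, the block changed the call of Abca1, Fth1, Lgals3, Lyz2 and Osm, which then passed. Leaving out 1 KO library at a time gave 3280 to 3372 genes higher and 3318 to 3471 lower, 1637 to 1660 and 1626 to 1679 at least 2-fold, and 0 for the interaction. The interaction called 3 genes higher with limma on RPKM, 17 higher and 7 lower without WT replicate 1, and 70 and 80 with the block and without WT replicate 1, an alternative chosen after seeing the data.
Small changes turned sign as follows (log2). With DESeq2's size factors, Ccl6 was at 0.0010 and Psap at 0.011. With DESeq2, Ccl6 was at 0.0012 and Psap at 0.011. Without replicate 2 in any group, Ccl6 was at 0.0062, Cd36 at 0.0063 and Cxcl14 at -0.23. With upper quartile scaling, Ctsb was at -0.045, Cxcl14 at -0.22, Fth1 at -0.00058, Gpnmb at -0.16, Lgals3 at -0.064, Lyz2 at -0.080, Mmp9 at -0.12 and Tgfb1 at -0.22. With total counts alone, Ctsb was at -0.37, Cxcl14 at -0.55, Fth1 at -0.33, Gpnmb at -0.48, Lgals3 at -0.39, Lyz2 at -0.41, Mmp9 at -0.45, Osm at -0.0074, Ppbp at -0.29 and Tgfb1 at -0.55. With limma on log2(RPKM + 0.1), Ctsb was at -0.37, Cxcl14 at -0.32, Fth1 at -0.33, Gpnmb at -0.48, Lgals3 at -0.39, Lyz2 at -0.40, Mmp9 at -0.51, Osm at -0.060, Ppbp at -0.22 and Tgfb1 at -0.54. With the transcript of lowest count, Nfe2l2 was at 0.45. Without 1 KO library at a time, the value ran from -0.037 to 0.022 for Ccl6, from -0.092 to 0.016 for Cd36, from -0.32 to 0.63 for Cxcl14, from -0.54 to 0.20 for Gapdh, from -0.091 to 0.40 for Mmp9 and from -0.078 to 0.054 for Psap. The cause was not tested, apart from the shift of all genes that the scaling gives. Depth limits genes near 0 without LPS, whose folds rest on few reads.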
